A study of Mus musculus with 4 samples.

Results

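Of 371 listed nuclear tRNA genes with n-T names, 244 formed the set of expressed nuclear tRNA genes described here, out of 40999 features listed in the series. They were selected on their measured counts, as every nuclear feature named n-T with 1 letter and a number whose counts summed to at least 40 over the 4 libraries. The letter after n-T is the amino acid in its one-letter code, so that n-Te21 is a glutamate tRNA gene and n-Tp9 a proline tRNA gene, and the counts were summed by this letter. The other 127 n-T genes stayed under the minimum, 46 of them with no count in any library. Just outside the minimum lay n-Tq1 with 36 summed counts and n-Ta22 and n-Ti2 with 37 each, and just inside it n-Ta32, n-Tl17 and n-Ty4 with 41 each. Since counts chose the genes, their presence in every library is a description and not a finding.

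Gonads of wild-type C57BL/6J mouse embryos were sequenced as total RNA from E11.5 to E14.5, once a day and in 1 library each, so that no day had a replicate. Each library was a pool of XX and XY gonads, at least 6 of each sex from 2 litters, and the labels name no treatment. The mesonephros, the embryonic kidney beside the gonad, was kept at E11.5 only and dissected away at the later days. Ribosomal RNA was depleted before library construction, and reads sharing a unique molecular identifier were counted once.

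tRNAs are the adaptors that carry amino acids to the ribosome and read the codons of mRNA by their anticodon. Their genes are transcribed by RNA polymerase III from promoter elements that lie inside the gene, and the precursors are trimmed at both ends, spliced where they hold an intron, and heavily modified. Most amino acids are served by several anticodons, and most anticodons by several gene copies of nearly the same sequence. The study describes its mapped reads as unique, but the settings for reads that fit several genes were not found in the sources used here. The counts of near-identical copies are therefore uncertain for each single gene named below, and sums over copies lack any read that was left out for fitting several of them. Modified bases and the compact fold of mature tRNA also hinder reverse transcription, so that a count is a reading of this protocol and not a number of molecules.

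Anticodons were taken from RefSeq on GRCm38.p6, the mm10 build of the files, where the coordinates matched 243 of the 244 genes. The amino acid letter was the same in every match. The unmatched gene, n-Ts2, was kept as serine by its letter. Together the genes carried 45 anticodons, and 9 amino acids were served by 1 anticodon each. Their exonic lengths ran from 71 to 86 bases with a median of 73, so that counts and length-scaled values ordered them alike: in all 20 amino acids the gene with the most counts also had the highest summed TPM.

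A few of the genes are shown to make the unit of counting visible, each as the gene's own strand, 5′ to 3′, with the anticodon in capitals. The sequences were read from GRCm38.p6 windows of RefSeq for n-Tr19 and n-Tt9 and from GENCODE vM21 transcripts for n-Tr22 and n-Ts24. The first 2 are arginine genes with different anticodons, TCT and TCG, and the others serve serine (TGA) and threonine (AGT).
n-Tr22: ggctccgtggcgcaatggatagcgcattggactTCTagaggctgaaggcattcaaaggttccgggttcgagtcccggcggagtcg
n-Tr19: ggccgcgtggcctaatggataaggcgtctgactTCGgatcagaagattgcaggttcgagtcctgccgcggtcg
n-Ts24: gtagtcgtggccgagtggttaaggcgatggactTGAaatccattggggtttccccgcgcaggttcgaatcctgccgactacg
n-Tt9: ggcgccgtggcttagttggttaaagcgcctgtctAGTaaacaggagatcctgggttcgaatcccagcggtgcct
n-Tr22 lies at chr3:122292948-122293032 on the minus strand and spans 85 bases, 12 of which are an intron that the files leave out of its exons. It is contained in a GENCODE retained-intron transcript of Gm17494 on the same strand. n-Tr19 lies at chr7:79466419-79466491 on the plus strand, n-Ts24 at chr13:23518146-23518227 on the plus strand, and n-Tt9 at chr7:35234770-35234843 on the minus strand.

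The libraries held 31266481, 25593453, 31752562 and 31526303 counts in order of embryonic day. Nuclear and mitochondrial rRNA took 17.7%, 8.90%, 8.72% and 48.9% of them, so the E14.5 library stood apart and E11.5 came next. The median feature changed by 0.16, 0.03 and -1.07 on the log2 scale in the 3 successive comparisons when libraries were scaled by total counts. TMM scaling, which sets the bulk of features to no change, brought these medians to 0.01 or less, and fold changes below are TMM values unless another scale is named. For the expressed tRNA genes the choice mattered most at E14.5, where the 2 scales differed by 1.08. A smallest resolvable level of 3 counts corresponded to at most 0.117 CPM.

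The 244 genes together held 99803, 65998, 53778 and 66481 counts from E11.5 to E14.5. These were 0.319% of all counts at E11.5 (exact Clopper-Pearson 95% interval 0.317 to 0.321), 0.258% at E12.5 (0.256 to 0.260), 0.169% at E13.5 (0.168 to 0.171) and 0.211% at E14.5 (0.209 to 0.212). The share thus fell over the first 3 days and was higher again at E14.5. With rRNA and the 10 most abundant features of each library left out of the total, the shares were 0.424%, 0.306%, 0.200% and 0.504%, and E14.5 rather than E11.5 was the highest. All intervals in this account cover counting error only, and with 1 library per day they compare libraries and not developmental stages.

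No gene of the set was at 0 in any library, and 220 had at least 10 counts in every one. The median gene held 124, 68, 55 and 74 counts from E11.5 to E14.5. The 10 most abundant genes of each library took between 34.3% and 36.1% of the tRNA counts, and n-Te21, the most abundant throughout, took 8.09%, 8.83%, 7.96% and 6.65%.

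Listed and expressed gene numbers parted most for cysteine. Of 57 listed cysteine genes 7 passed the minimum, against 20 of 23 for arginine, 14 of 18 for glutamate and all 10 for tyrosine. A run of 48 cysteine genes at chr6:48133937-48363603 had no gene in the set. The 7 expressed cysteine genes all carried GCA, and n-Tc54 on chromosome 11 gave 63.8% of their counts. Alanine had 20 expressed of 33 listed genes, lysine 13 of 24 and glycine 17 of 28.

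**Figure D1:**
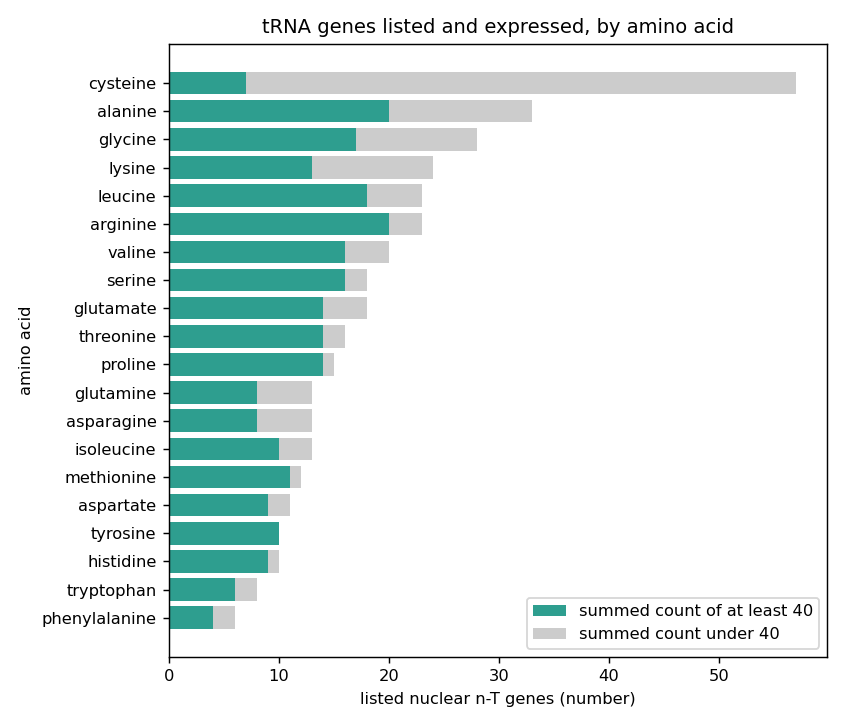
Number of listed nuclear n-T genes for each amino acid, split into those with a summed count of at least 40 (green) and those under it (grey). Cysteine has the longest bar with 57 genes and one of the shorter green parts with 7, while arginine and alanine have the longest green parts with 20 each.

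Genomic position set some of the genes apart as groups. Chromosome 13 held 76 of the 244 genes and 22.2% of their counts, and chromosome 11 held 40 genes and 16.1%. The largest expressed cluster, at chr13:23270421-23530419, had 42 expressed of 45 listed genes for 15 amino acids and gave 11.9% of the tRNA counts over the 4 libraries. The cluster at chr11:69037003-69125248, with 17 expressed genes for 11 amino acids, gave 6.04%, 5.15%, 5.37% and 7.84%, and thus had its highest share at E14.5. Its gene n-Tp9 alone gave 2.95%, 2.63%, 2.60% and 4.96% of the tRNA counts. The high E14.5 share of the cluster therefore rests largely on 1 gene. Set against the other features listed in the series, 194 genes, with 74.0% of the counts, lay between other genes. n-Tr22 is among them, although a GENCODE transcript of Gm17494 contains it. Another 16 lay in introns of genes on the same strand and 3 in exons on the same strand. Introns on the opposite strand held 23 genes and exons on the opposite strand 8.

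Glutamate tRNAs were the largest amino acid group in every library. Their counts were 22438, 15601, 11605 and 11715 by day, which were 22.5%, 23.6%, 21.6% and 17.6% of the tRNA counts. Arginine followed with 11.1%, 12.3%, 13.8% and 12.2%. Proline, leucine, serine and alanine came next with values between 6.17% and 11.3%. The shares were highest for glutamate and lowest for phenylalanine, tryptophan and glutamine, each of which stayed under 0.6% throughout among the n-T genes. Across the 20 amino acids the order changed little, with a Spearman correlation of at least 0.97 between any pair of successive libraries and between the first and the last, given as a description of groups that share the libraries.

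**Figure D2:**
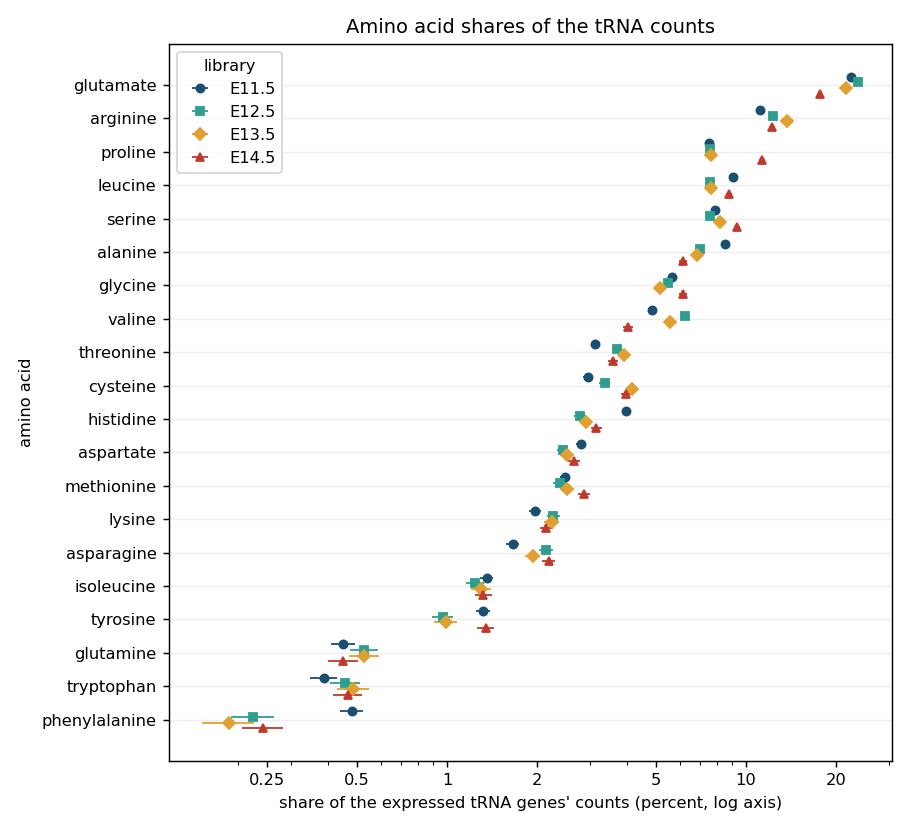
Share of the counts of the 244 expressed tRNA genes (percent, log axis) for each amino acid in the 4 libraries, with exact 95% counting intervals. Glutamate lies highest at 17.6% to 23.6%, proline stands out at E14.5 with 11.3%, and phenylalanine drops from 0.479% at E11.5 to 0.224% at E12.5.

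Shares within the tRNA counts do not depend on the scaling between libraries, and they moved for single amino acids by more than counting error. From E11.5 to E12.5, 9 of 20 amino acids had a larger share and 8 a smaller one, with intervals of the ratio that excluded 1. Phenylalanine fell furthest, to 0.468 of its share (95% interval 0.387 to 0.564), followed by histidine at 0.702 (0.664 to 0.742) and tyrosine at 0.734 (0.667 to 0.808). Asparagine and valine had the largest ratios, 1.29 each. From E12.5 to E13.5 the shares were steadier, with 3 larger, 4 smaller and 13 whose interval held 1, and cysteine had the highest ratio at 1.23 (1.16 to 1.31). From E13.5 to E14.5, 9 amino acids had a larger share and 5 a smaller one. Proline then reached 1.49 times its share (1.43 to 1.54), from 7.62% to 11.3%, and tyrosine 1.36 times (1.22 to 1.52). Valine was at 0.724 (0.687 to 0.763) and glutamate at 0.817 (0.796 to 0.838). No replicate shows how far such shares vary between pools of the same day.

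Between E11.5 and E12.5, 48 of the 244 genes were called lower and 1 higher. A gene was called when its fold was at least 2 and its counting interval excluded no change. Among all 19215 features kept by the filter on low counts, 8.29% were called lower and 7.92% higher, and all 244 genes passed this filter. The genes called lower were thus 19.7% of the set. Of 103 snoRNA genes (Snord and Snora) with at least 40 counts, 19.4% were called lower, with a median log2 fold change of -0.66. Of 16 nuclear tRNA genes with other names and at least 40 counts, 18.8% were called lower, with a median of -0.46. Of 19 mitochondrial tRNA genes 0 were called lower, with a median of -0.29. The fall was therefore not particular to the n-T genes. The median log2 fold change of the 244 genes was -0.57, where that of all features was set to about 0 by TMM, and 22 of the 244 values lay above 0. By total counts the median was -0.41, beside 0.16 for all features, and 26 genes were called lower.

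All 20 amino acid sums fell in this comparison, from -1.56 (95% interval -1.84 to -1.29) for phenylalanine to -0.10 (-0.20 to 0.01) for asparagine, whose interval held 0. By total counts asparagine and valine were at 0.06 instead. Leucine had 6 genes called lower, glutamate and aspartate 5 each. Histidine, with 4 of its 9 genes called, went from 3964 to 1841 counts and a log2 fold change of -0.98 (-1.06 to -0.90).

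Phenylalanine tRNA genes held 478, 148, 100 and 161 counts by day. The E11.5 library was the highest by far. Its leading gene n-Tf7 (anticodon GAA, chr5:125406055-125406127, minus strand) had 196, 50, 41 and 75 counts and fell by 1.84 (interval -2.32 to -1.39) from E11.5 to E12.5. Of the 4 expressed phenylalanine genes, 3 were called lower.

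The 3 largest falls among genes called lower with at least 100 counts in E11.5, the higher library of the pair, were those of n-Tg13, n-Ts7 and n-Tf7. n-Tg13 (glycine, GCC, chr11:69118794-69118864, minus strand, opposite to an exon of Hes7) had 126, 29, 29 and 146 counts and fell by 1.99 (-2.63 to -1.40). It was therefore low at the middle days and high at both ends of the series. n-Ts7 (serine, AGA, chr13:23500957-23501038, minus strand) had 107, 27, 29 and 33 counts and fell by 1.85 (-2.52 to -1.24).

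The gene called higher was n-Ta36, an alanine TGC gene at chrX:136396904-136396975. It had 2, 21, 19 and 20 counts, and its E12.5 to E11.5 ratio was 10.8 on the TMM scale, or 3.44 on the log2 scale with an interval of 1.49 to 6.66. It lay under the 100 counts of the naming rule and is named because it was the single call.

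At E11.5 the dissected tissue differed, and several cell type markers differed between E11.5 and E12.5 as well. Summed TPM of 4 mesonephros markers (Pax2, Pax8, Lhx1 and Wnt9b) was highest at E11.5 with 33.6 and lowest at E14.5 with 4.48, with none of them at 0. The low E14.5 sum is not particular to these markers, since summed TPM fell from E13.5 to E14.5 in every gene list read here. On the TMM scale the median of the 4 markers between these days was 0.52, with values from -0.57 to 2.04, and none was called. From E11.5 to E12.5 Pax2 went from 1531 to 60 counts and Wnt9b from 575 to 10. Pax8 went from 546 to 283 counts and was not called. Lhx1 went the other way, from 209 to 299 counts at 0.64 (0.38 to 0.91), and was not called either. All 4 germ cell markers were called higher at E12.5, with Dazl at 53 and then 4555 counts. The rRNA share of the library differed too, with 17.7% at E11.5 and 8.90% at E12.5. Dissection, embryonic day and rRNA content cannot be told apart in this comparison. In bulk tissue, too, a change in the number of cells of a type and a change in RNA per cell cannot be told apart.

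Between E12.5 and E13.5, 19 of the 244 genes were called lower and none higher. Of all 19152 features kept, 1.37% were called lower and 2.53% higher, and 242 of the 244 genes passed the filter. The highest value of any gene was 0.89, under the 2-fold threshold. The median log2 fold change of the genes was -0.62 (-0.59 by total counts), beside medians of 0.03 or less for all features. All 20 amino acid sums fell on both scales, from -0.33 (-0.42 to -0.24) for cysteine to -0.90 (-1.28 to -0.53) for phenylalanine. The range over amino acids was narrower than in the comparison before it.

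Valine contributed 5 of the 19 calls and glycine 3. Valine CAC genes fell from 1160 to 691 counts, by 1.08 on the log2 scale. n-Tv19 (valine, CAC, chr13:23307629-23307701, plus strand) had 670, 423, 224 and 224 counts and fell by 1.25 (-1.49 to -1.02), the largest fall among called genes with at least 100 counts in the E12.5 library. n-Ta12 (alanine, AGC, chr13:23400795-23400867, minus strand) had 165, 153, 90 and 63 counts and fell by 1.10 (-1.49 to -0.72).

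n-Te20 (glutamate, TTC, chr3:96387405-96387476, minus strand) was lower in each successive library, with 1375, 452, 264 and 182 counts. It fell by 1.48 (-1.63 to -1.32) at E12.5 and by 1.11 (-1.34 to -0.89) at E13.5. At E14.5 its TMM value was 0.55 (0.27 to 0.83), under the 2-fold threshold, and by total counts it was -0.53. The most abundant TTC genes of glutamate changed less at both steps: n-Te21 (chr1:34434812-34434883, minus strand) held 8072, 5830, 4281 and 4420 counts, with values of -0.34 and -0.78, and n-Te15 4274, 3939, 2887 and 2734, with 0.01 and -0.79.

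Between E13.5 and E14.5, 183 of the 244 genes were called higher and none lower, in all 20 amino acids. Of all 18992 features kept, 5.89% were called higher and 1.44% lower, and 239 of the 244 genes passed the filter. The median log2 fold change of the genes was 1.39, beside 0.01 for all features. By total counts the median was 0.31, beside -1.07 for all features, and 28 genes were called higher. On the TMM scale 241 genes lay above 0 and on the total count scale 184. The size of this rise thus depended on the scale. The change of scale shifts every feature by the same 1.08. The distance of the genes from the median feature is therefore nearly the same on both scales by construction.

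Other short RNAs without a poly(A) tail of their own were read in the same pair of libraries. Of 103 snoRNA genes (Snord and Snora) with at least 40 counts, 80.6% were called higher, with a median of 1.63 (0.55 by total counts). Of 19 mitochondrial tRNA genes 4 were called higher, with a median of 0.82 by TMM that became -0.26 by total counts. The 16 nuclear tRNA genes with other names (Trn) and at least 40 counts had a median of 1.15 (0.07 by total counts), and 9 of them were called. The rRNA share of 48.9% was measured in the same library. The part of rRNA content or of library construction in the rise of the tRNA genes was not tested.

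**Figure D3:**
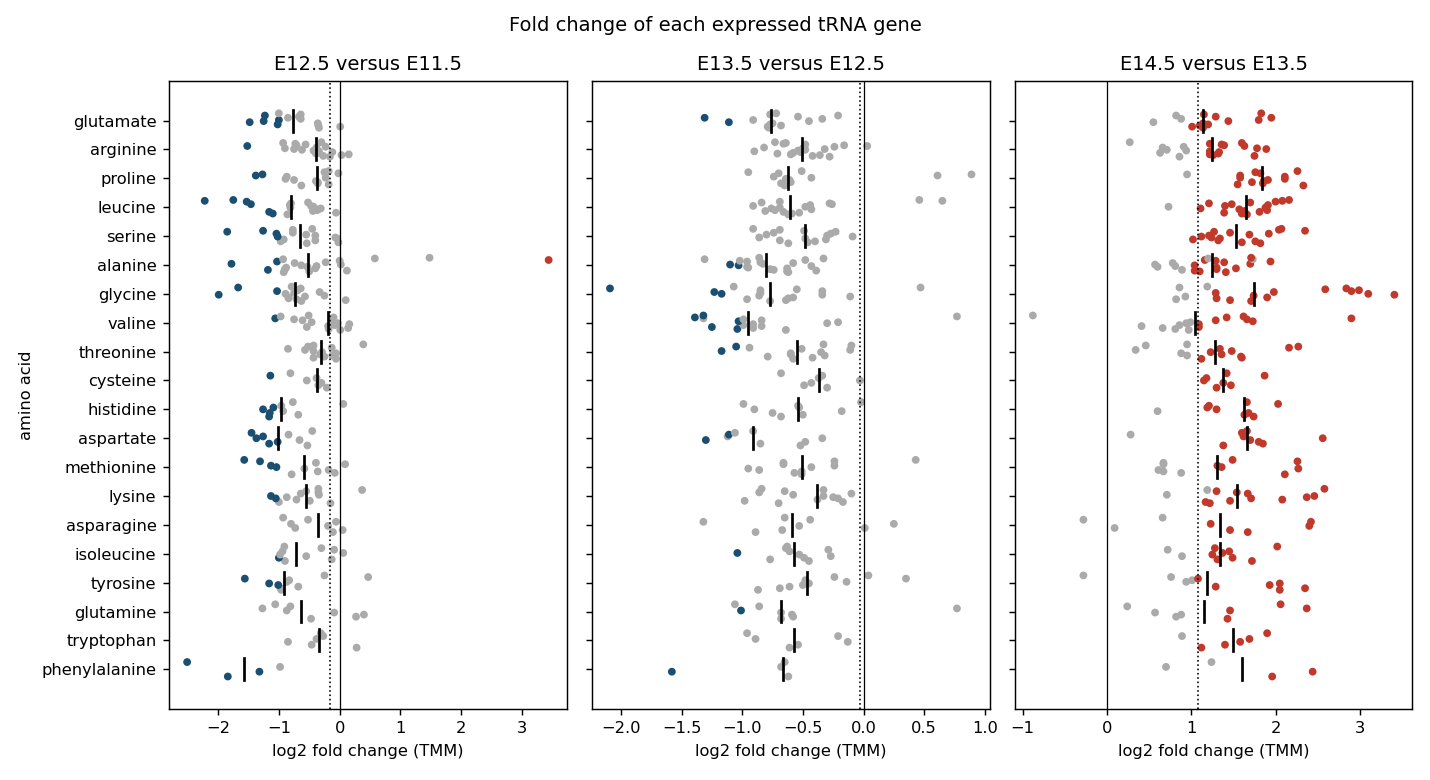
Log2 fold change (TMM) of each of the 244 expressed tRNA genes by amino acid in the 3 successive comparisons, with genes called higher in red, called lower in blue, others in grey and a black bar at each amino acid's median. The solid line marks no change by TMM and the dotted line no change by total counts, which lies at -0.16, -0.03 and 1.08, so that the 183 red points at E14.5 against E13.5 partly lie near or left of the dotted line.

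Proline rose most at E14.5. Its sum went from 4098 to 7527 counts, a log2 fold change of 1.97 (1.91 to 2.02), or 0.89 by total counts, and 13 of its 14 genes were called. n-Tp9 (CGG, chr11:69040385-69040456, plus strand) had 2944, 1735, 1400 and 3297 counts, and the E14.5 library was the highest even in raw counts. It rose by 2.33 (2.23 to 2.42). Within proline, CGG took 50.8%, 46.3%, 45.9% and 54.8% of counts by day and TGG 45.4%, 50.8%, 50.3% and 41.8%, so TGG led on the middle days and CGG on the first and last.

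Valine rose least, with 2990 and 2676 counts and a TMM value of 0.93 (0.85 to 1.01), which became -0.15 by total counts. Among amino acids it was the 1 sum that lay below 0 on that scale. Its leading gene n-Tv21 (TAC, chr19:12011931-12012003, plus strand) had 2042, 1881, 1529 and 1410 counts and a value of 0.97 (0.87 to 1.08), just under the call. Glutamate, with 1.10 (1.07 to 1.14), was at 0.02 by total counts.

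Besides n-Tp9, the largest rises among genes with at least 100 counts in the E14.5 library were those of n-Tg13 and n-Ty9. n-Tg13, described above for its fall, rose by 3.41 (2.84 to 4.05), from 29 to 146 counts. n-Ty9 (tyrosine, GTA, chr5:30888083-30888171, plus strand, with an intron) had 313, 146, 114 and 274 counts and rose by 2.35 (2.03 to 2.68).

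Glycine genes were prominent at the upper end, an observation made after the values were seen. Of 9 genes with a log2 fold change above 2.5, 6 were glycine genes and 5 of these carried GCC (n-Tg12, n-Tg13, n-Tg27, n-Tg28 and n-Tg29). These 5 genes lie on chromosomes 1, 11, 13 and 2 and together held 362, 149, 118 and 464 counts. The leading GCC gene n-Tg10 (chr8:111062561-111062631, plus strand) had 2733, 1612, 1194 and 1841 counts and rose by 1.71 (1.61 to 1.82). As copies of 1 anticodon, their single counts are uncertain.

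**Figure D4:**
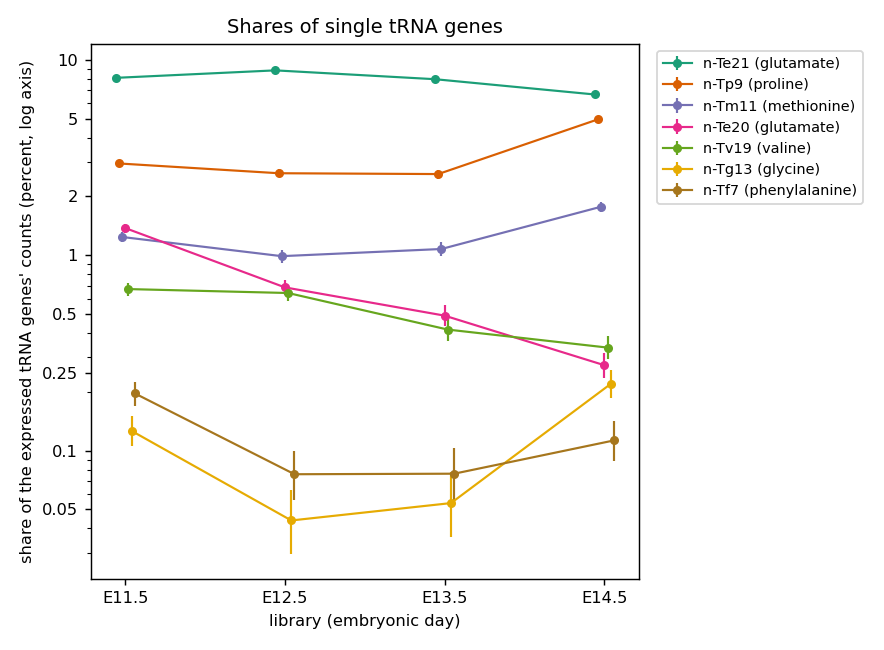
Share of the tRNA counts (percent, log axis) of 7 single genes in the 4 libraries, with exact 95% counting intervals and lines joining the libraries of a gene. n-Te21 lies highest at 6.65% to 8.83%, n-Te20 is lower at each successive day, and n-Tg13 and n-Tp9 are higher at E14.5 than at E13.5.

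Leading genes of the other amino acids are given by their counts from E11.5 to E14.5. n-Tr22 (arginine, TCT) held 1678, 1374, 1428 and 1216 counts, and with 0.86 (0.75 to 0.97) it was not called at E14.5. n-Tl7 (leucine, AAG) held 1925, 970, 795 and 1183. n-Ts20 (serine, GCT) held 2445, 1538, 1266 and 2107. All 3 had their highest raw count at E11.5.

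n-Ta39 (alanine, TGC) held 3781, 1830, 1503 and 1871 counts and n-Tt15 (threonine, TGT) 976, 856, 723 and 740. n-Th4 (histidine, GTG) held 1249, 512, 403 and 631 and was called lower at E12.5, at -1.16 (-1.31 to -1.01). n-Td16 (aspartate, GTC) held 1967, 1243, 1095 and 1336, or 75.1% of all aspartate counts over the 4 libraries. Aspartate was thus nearly a single-gene sum, as was lysine, where n-Tk17 (CTT) held 1446, 1196, 932 and 1022 and gave 75.5%.

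n-Tm11 (methionine, CAT) held 1238, 653, 579 and 1178 counts and rose by 2.11 (1.97 to 2.26) at E14.5. The anticodon alone does not separate initiator from elongator methionine tRNAs. n-Tn9 (asparagine, GTT) held 1059, 899, 611 and 915, n-Ti16 (isoleucine, AAT) 456, 223, 206 and 319, and n-Ty10 (tyrosine, GTA) 397, 187, 129 and 251. Low counts were found for n-Tq7 (glutamine, CTG) with 130, 86, 68 and 86 and n-Tw6 (tryptophan, CCA) with 108, 120, 99 and 101, and the phenylalanine leader n-Tf7 lay lowest over the 4 libraries. n-Tw6 had its highest raw count at E12.5.

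In 10 of the 11 amino acids with several anticodons, an anticodon's share had counting intervals that did not overlap in some pair of libraries. Histidine was the exception. This is a loose criterion, since 1 anticodon in 1 pair of libraries was enough. No replicate shows how far such shares vary between pools of the same day. Among glutamate counts, TTC took 85.6% (85.1 to 86.1), 90.6% (90.2 to 91.1), 90.4% (89.8 to 90.9) and 89.2% (88.6 to 89.8), and CTC the rest. The step lay between E11.5 and E12.5. Among arginine counts, TCT went from 29.9% (28.8 to 30.9) at E13.5 to 22.1% (21.2 to 23.0) at E14.5, and CCG, carried by 1 gene, from 11.8% (11.1 to 12.6) to 17.0% (16.2 to 17.9). Among valine counts, TAC rose from 45.0% at E11.5 to 56.8% at E14.5. Among glutamine counts, TTG took 42.3%, 57.9%, 59.2% and 46.0%, from fewer than 500 counts in each library. All these shares are over n-T genes and leave out rows with other names. For glutamine these are Trnaq-uug, with 187, 174, 126 and 118 counts, and Trnaq-cug, with 45, 26, 26 and 27. Rows for glutamate TTC (Trnae-uuc) and arginine TCT (Trnar-ucu) are left out too.

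An intron was listed for 19 of the 244 genes, all 10 tyrosine genes and 3 each of isoleucine, leucine and arginine. These genes gave 6.58%, 6.63%, 7.24% and 6.59% of the tRNA counts. Their median log2 fold changes were -0.68, -0.48 and 1.28, beside -0.57, -0.62 and 1.40 for the 225 genes without an intron.

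The tRNA share of an amino acid was set beside its number of listed genes and its use in proteins, both as descriptions over 20 amino acids that share the libraries. The Spearman correlation with the number of listed genes, which the counts did not choose, was 0.64, 0.64, 0.67 and 0.63 by day (Pearson 0.21, 0.21, 0.24 and 0.24). Amino acid use was computed from the coding sequences of 19960 genes weighted by TPM. Its Spearman correlation with the tRNA share was 0.73, 0.70, 0.70 and 0.66 (Pearson 0.62, 0.58, 0.58 and 0.62). Use itself changed by at most 0.328 percentage points between libraries. Relative to its size tryptophan still moved, from 1.01% at E13.5 to 1.23% at E14.5. Genes with a coding sequence held 31.7%, 39.2%, 42.1% and 15.0% of TPM by day, so the E14.5 estimate rests on the smallest part.

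Glutamate stood furthest above its use, with a tRNA share 3.07, 3.23, 2.96 and 2.51 times the share of glutamate among coded residues. Arginine was at 1.89 to 2.38 times and cysteine at 1.57 to 2.18 times. Glutamine, at 0.0949, 0.113, 0.113 and 0.0943, and phenylalanine, at 0.142, 0.0659, 0.0545 and 0.0712, stood furthest below. Lysine was at 0.304 to 0.349. All 24 listed lysine n-T genes carried CTT, and a separate row named for the other lysine anticodon (Trnak-uuu) held 34, 22, 16 and 16 counts that the lysine sum leaves out. The glutamine sum likewise leaves out Trnaq-uug, with 187, 174, 126 and 118 counts, and Trnaq-cug, with 45, 26, 26 and 27. With all rows of other names added, glutamine took 0.632%, 0.764%, 0.749% and 0.624% of the tRNA counts.

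**Figure D5:**
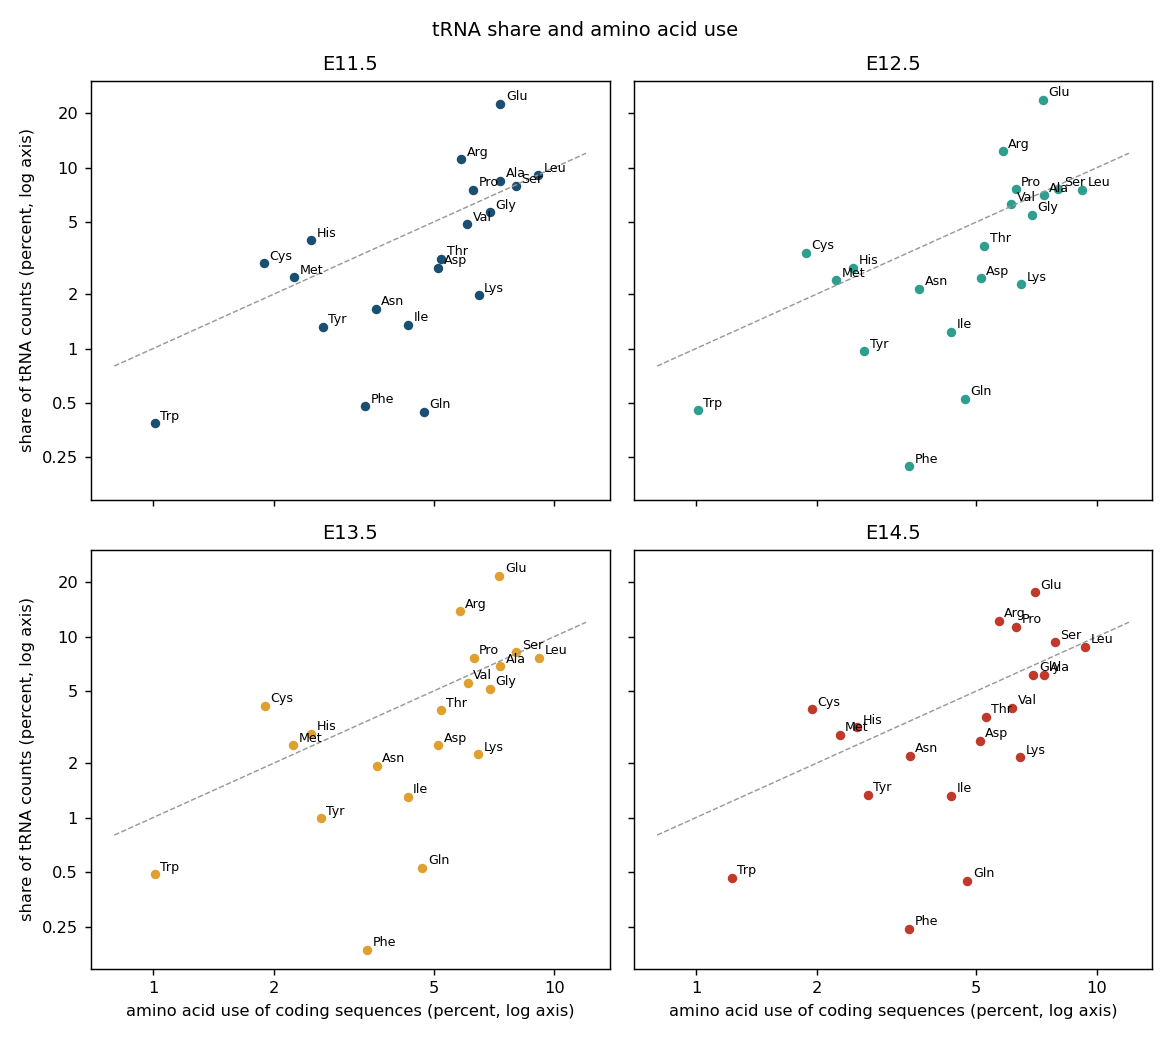
Share of the tRNA counts against amino acid use of TPM-weighted coding sequences (both percent, log axes), 1 panel per library and 1 point per amino acid, with a dashed line where they are equal. Glu lies furthest above the line (2.51 to 3.23 times) and Gln and Phe furthest below it in every panel.

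Genes of the tRNA pathway were read on the TMM scale in 6 lists, which hold no aminoacyl-tRNA synthetase. None of 73 genes in 6 lists of the tRNA pathway was called in any of the 3 comparisons, and all 73 passed the filter, which stands beside backgrounds of 7.92% and 8.29%, 2.53% and 1.37%, and 5.89% and 1.44% called higher and lower. The median over the 73 genes was 0.05, -0.04 and -0.06. The 11 RNA polymerase III subunits had medians of 0.08, 0.00 and -0.09, with values from -0.40 to 0.39. Polr3g, a subunit known from pluripotent cells, held 357, 427, 557 and 244 counts, and its counterpart Polr3gl 498, 481, 641 and 282. These are TMM values, and by total counts the E14.5 values lie 1.08 lower.

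The 9 genes of TFIIIC and TFIIIB, the factors that bring the polymerase to tRNA genes, had medians of -0.08, -0.04 and -0.06. Maf1, a repressor of RNA polymerase III, held 1562, 1330, 1580 and 836 counts, with values of -0.10, -0.09 and 0.17. Genes that trim and mature the tRNA ends (14, among them Ssb, Elac2 and Trnt1) had medians of 0.14, 0.00 and -0.04, and Rpp25, an RNase P protein, came closest to a call with 0.98 at E12.5, from 475 to 857 counts. The 7 genes of tRNA splicing and export had medians of 0.08, -0.17 and 0.04. The 31 genes of tRNA modification had 0.01, -0.11 and -0.09. Every gene of the 6 lists thus stayed within 2-fold on the TMM scale.

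Gonadal cell type markers were read in the same libraries. At E12.5 the Sertoli markers Amh and Dhh and 3 of 5 gonad somatic markers (Nr5a1, Gata4 and Lhx9) were called higher. So were 2 of 4 pregranulosa markers (Fst and Foxl2) and, as given above, all 4 germ cell markers. All 3 fetal Leydig markers were called higher at E12.5 and again at E13.5. At E14.5, the day of the 183 tRNA calls, no marker of gonad somatic, Sertoli, pregranulosa, germ, Leydig or mesonephros cells was called. Of 6 erythroid genes 3 embryonic globin genes, Hbb-y, Hba-x and Hbb-bh1, were then called lower. The part of a changing cell mixture in the tRNA values was not tested.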

How the data were processed

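Counts per gene were deposited by the authors for 4 libraries. Reads had been aligned by STAR to mm10, deduplicated by their UMIs and counted by featureCounts. The deposited TPM values were made by the authors from these counts and the exon lengths. The study describes its mapped reads as unique. Tool versions, the annotation release and the counting options for reads that fit several genes were not found in the sources used here.

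The genes, lists and alternatives were chosen with earlier results of these data known. Features were kept by filterByExpr and scaled by TMM for each pair of successive days in edgeR 4.0.16 (R 4.3.3). With 1 library per day no test across replicates was possible. Log2 fold changes used a prior count of 0.125, and calls required at least 2-fold and an exact Clopper-Pearson 95% counting interval that excluded no change. The call was tested on simulated data with counting error only, where known changes were placed on features with at least 100 counts. Variation between pools was not simulated, so its effect on the calls is unknown. Named genes are the most abundant gene of each amino acid, the 3 largest rises and falls among called genes whose higher library of the pair held 100 counts or more, and the rows nearest the minimum of 40. n-Ta36, n-Te15 and the glycine GCC genes were named after their values were seen. Amino acid use came from the longest coding sequence of each gene in GENCODE vM21, since no protein table was at hand. DESeq2 1.42.0 size factors were an alternative. Python 3.11.15 with numpy 2.4.6, pandas 2.3.3 and scipy 1.17.1 was used.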

Additional observations from a re-analysis of the deposited data

Results flagged for a closer look

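Counts also fell on nuclear tRNA rows outside the set. The 127 n-T rows under the minimum of 40 together held 311, 172, 167 and 190 counts from E11.5 to E14.5. The 20 nuclear tRNA rows with other names held 7724, 5870, 4407 and 4536 counts. The row Trnae-uuc, a glutamate tRNA, gave most of these, with 4648, 3893, 2794 and 2917. Phenylalanine had a second row there too, Trnaf-gaa, with 208, 30, 26 and 33 counts.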

How the results depend on the processing

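No paired analysis was possible because each day has 1 library. There were 100 alternative values for the counts of called genes, medians, shares of all counts and counts of amino acid shares. Of these, 81 stayed close to the main value and 19 moved. A reversal could be scored only for the medians, where none changed sign. For the other values even a loss of all calls or a new highest library counts as a move. Scaling by total counts gave 2 genes called higher and 26 lower at E12.5, 28 higher at E14.5, and medians of -0.41 at E12.5 and 0.31 at E14.5. A preset biological coefficient of variation of 0.4 in edgeR's exact test left 0 called genes higher or lower at E12.5, 0 lower at E13.5 and 0 higher at E14.5. At 0.1 it left 10 lower at E13.5. A counting interval wholly past 2-fold left 10 lower at E12.5, 1 lower at E13.5 and 109 higher at E14.5. By the point value alone 2 genes were higher at E12.5, and with a minimum of 100 summed counts 0 were. Without rRNA and the 10 most abundant features of each library in the total, the shares were 0.424%, 0.306%, 0.200% and 0.504%. Single amino acid shares were more sensitive: of 400 alternative values 177 lay outside the counting interval, 64 of 80 with rows of other names added (glutamate moved most, by 3.50 percentage points), 19 of 80 by TPM, 14 of 80 with a minimum of 100, 0 of 80 with every listed n-T row and 80 of 80 without the leading gene. Glutamate had the largest share in all 4 libraries with a minimum of 100, with every listed n-T row, with rows of other names and by TPM. Without n-Te21 its share was 15.7%, 16.2%, 14.8% and 11.8%. Depth limits the rare genes most, and the spread between pools of 1 day is unknown.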
